A study of Mus musculus with 8 samples.

Results

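The nuclear genes of the mitochondrial respiratory chain were followed in the liver of db/db mice and of lean mice. Members were chosen by symbol: names starting with Nduf (complex I), Uqcr (complex III), Cox4 to Cox8 (complex IV) or Atp5 (complex V, the ATP synthase), with the complex I assembly factors (Ndufaf) kept apart. Of 22481 genes in the deposited table, 89 matched, and 83 of these reached 0.5 FPKM (fragments per kilobase of transcript, scaled for depth) or more in at least 4 of the 8 samples. Those 83 were tested among 10943 genes that passed the same filter. The other 6, Cox4i2, Cox6a2, Cox6b2, Cox7b2, Cox8b and Cox8c, all of complex IV, were too low to be tested.

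Each group held 4 male liver samples. The db/db mice, which are homozygous for a mutation that alters the splicing of the leptin receptor gene Lepr and become obese and diabetic, carry db/db as their strain label. The lean controls carry C57BL/6, so the genetic background of the mutant animals remains unknown here, and a strain difference and the effect of the mutation cannot be told apart. The series addresses nonalcoholic fatty liver disease and the proteasomal deubiquitylating enzyme RPN11. No source used here gives age or diet. All mice were kept pathogen free with food and water at will, and the RNA was depleted of ribosomal RNA rather than selected by its poly(A) tail.

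The respiratory chain of the inner mitochondrial membrane passes electrons from NADH and succinate to oxygen and pumps protons, and the ATP synthase uses the proton gradient to make ATP. Complexes I, III, IV and V are built from subunits of both genomes: a small set comes from mitochondrial DNA and the majority from nuclear genes, while complex II is wholly nuclear. Many further proteins, the assembly factors, insert cofactors and join modules without staying in the finished complex. In liver the chain supports the oxidation of fatty acids, gluconeogenesis and urea synthesis.

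Estimated fragments over all genes of the deposited table ranged from 13157730 to 16171655 in db/db samples and from 12174819 to 14978541 in lean samples. The first principal component of all tested genes took up 63.4% of the variance and set db/db apart from lean liver, and db/db 1 stood apart from the other db/db samples on the second, with 10.7%. Of 7 hepatocyte markers, 3 were called (adjusted p under 0.05 in limma), all lower in db/db liver (Apoa1, Ttr and Serpina3k), and the summed FPKM of the 7 was 11432 to 16550 in db/db samples, against 33903 to 38932 in lean samples. Apoa1 had most of that difference, at 982 ± 274 FPKM in db/db and 15006 ± 2439.7 FPKM in lean liver, while Tat, Cps1, Apoh and Asgr1 were not called, with db/db over lean ratios of mean FPKM of 0.933, 0.873, 0.843 and 1.12. Of 6 tested Kupffer cell markers, 3 were called lower (C1qa, Clec4f and Marco), with sums of 88.1 to 121 FPKM in db/db samples and 130.0 to 199 FPKM in lean samples. Of 6 sinusoidal endothelial markers, Clec4g and Fcgr2b were called lower, while Lyve1 was 1.83-fold higher without being called (adjusted p = 0.0548). Of 6 stellate cell markers, Des alone was called lower. Clec4f was lost on leaving out any library but db/db 2 or lean 4, Marco without lean 1 or any db/db library, and Des without any library but db/db 1 or lean 4 (adjusted p up to 0.0909). Of the tested cholangiocyte (3), lymphocyte (1), adipose (1) and erythroid (3) markers, limma and voom called 0, with 1 erythroid marker at an unadjusted p under 0.05. The part of these shifts in the results below was not tested. In bulk tissue, fewer cells of a type and less RNA per cell cannot be told apart.

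The nuclear respiratory chain genes were called in both directions, and a shared shift of the members was not tested. Of the 83 tested members, 17 (20.5%) were called, 7 higher and 10 lower in db/db liver. Among all 10943 tested genes the same test called 26.4%, 15.5% higher and 10.9% lower, so the share of members called was not above that of all genes. Their median log2 fold change (db/db minus lean) was -0.14, against 0.04 over all tested genes, with 56 members below 0 and 27 above. Single members spanned -1.06 for Ndufs5 to 0.62 for Ndufaf7, and the 66 members that were not called lay between -0.36 and 0.37. The FPKM of the groups did not overlap in 7 members with higher and 11 with lower values in db/db liver, where 16.9% and 11.6% of all tested genes showed the same.

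**Figure D1:**
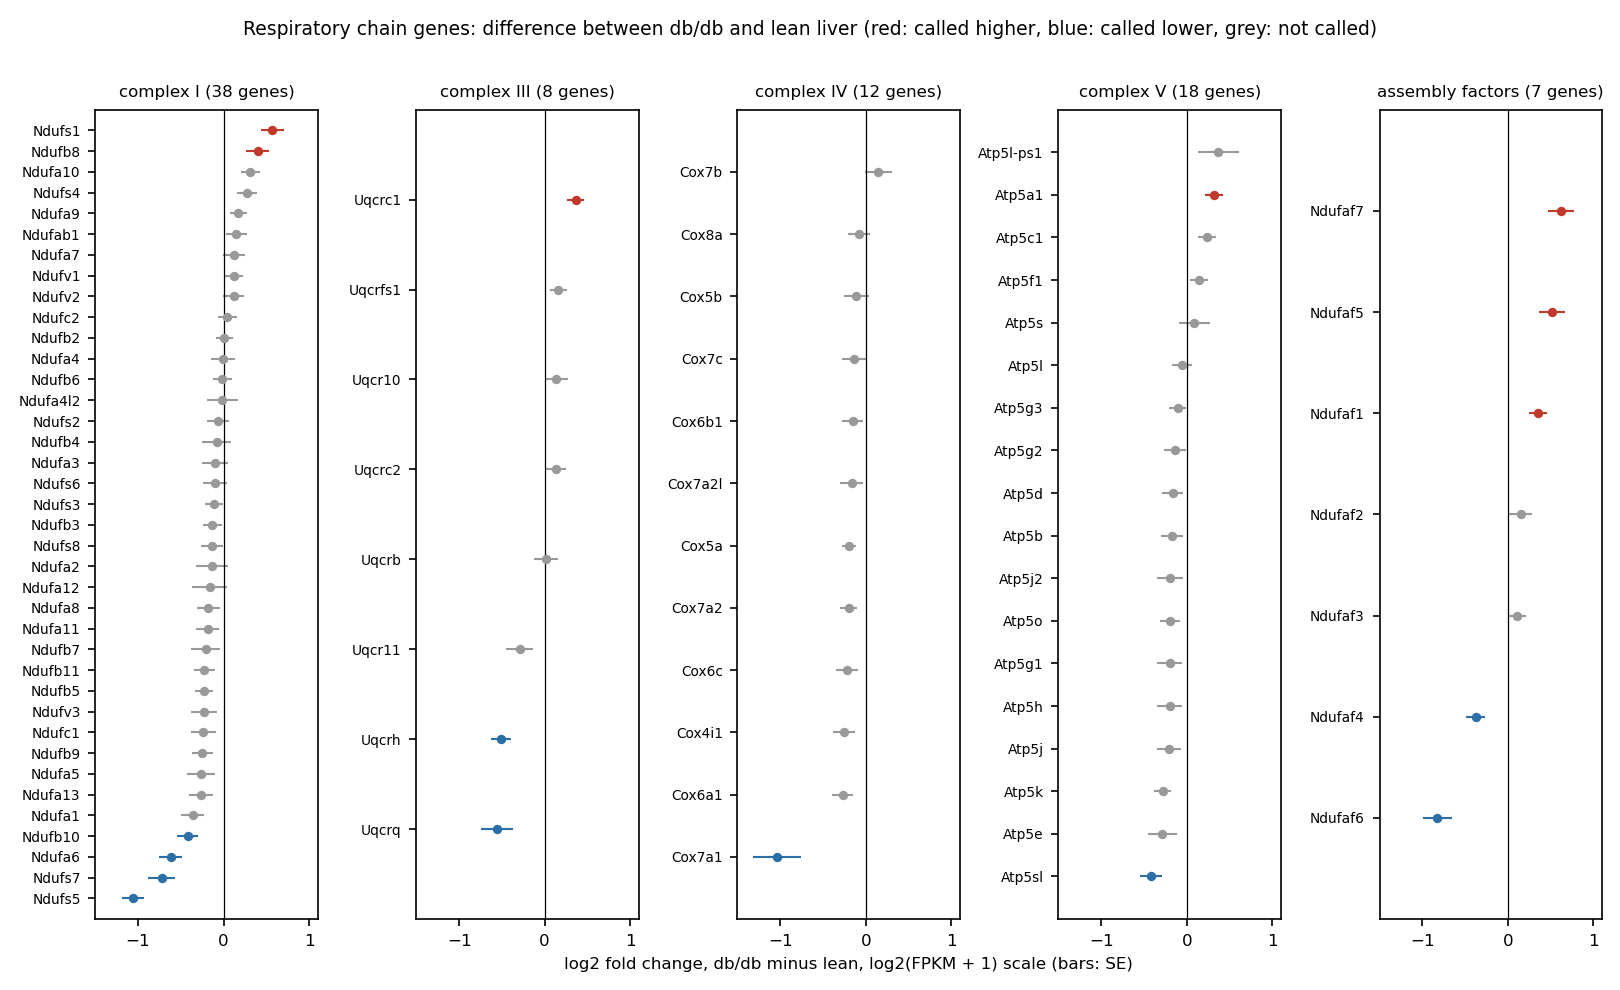
Log2 fold change (db/db minus lean, log2(FPKM + 1) scale) of each of the 83 tested genes on the horizontal axis, with bars for the standard error, in 1 panel for each complex and for the Ndufaf assembly factors. Red points were called higher and blue points lower in db/db liver; Ndufs5 lies lowest at -1.06 and Ndufaf7 highest at 0.62, and the grey points lie between -0.36 and 0.37.

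The split depended on the scaling. When FPKM was rescaled by median ratios, 14 members were called, 3 higher and 11 lower, beside 26% of all genes, 13.4% higher and 12.6% lower, and the median of all genes moved to 0.00. Voom, limma's test on estimated fragments, called 16 members, 4 higher and 12 lower, beside 29% of all genes, 15% higher and 14% lower. Ndufs5, Ndufaf6, Ndufa6, Ndufs7 and Uqcrh were lower and Ndufs1 was higher in each of the 21 alternatives run, 8 of which left out 1 library, and Ndufaf7 was called in 20 of 21. The other 10 calls were lost in at least 5 alternatives each.

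The windows around the transcription start were compared for the binding motifs of regulators of respiratory chain genes. RefSeq start-site windows of GRCm38.p6, 300 bases long, were matched for 70 of the 83 tested members. The nearly palindromic motif of NRF1, a factor known to bind many promoters of this class, 10 letters long with 1 free base, stood on either strand in the windows of 17 of these 70 members (24.3%), against 7.17% of 17492 protein-coding genes. The motif of YY1, also with 1 free base, stood in 5 (7.14%), against 1.63%, the ETS-type motif CCGGAAGT in 5 (7.14%), against 5.69%, and the motif TCAAGGTCA of the oestrogen-related receptors in 1 (1.43%), against 0.377%. Unlike the members, the 17492 genes were not filtered by their level in liver, and the part of this in the shares was not tested. Windows were found for 5 of the 7 members called higher, 2 of them with the NRF1 motif, and for 8 of the 10 called lower, 3 of them with NRF1, 2 with YY1 and 1 with ETS. Both directions of change thus occurred among genes with the NRF1 letters.

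Shown here are 4 of these windows, from called members of complexes I and III, each 5′ to 3′ on the strand of the gene, with the motif in capitals. Ndufs5 (chr4:123718137-123718436, minus strand), called lower, carries NRF1 letters, as does Uqcrc1 (chr9:108936398-108936697, plus strand), called higher, in 2 places. Ndufs7 (chr10:80249199-80249498, plus strand), called lower, carries the YY1 letters, and Uqcrh (chr4:116075021-116075320, minus strand), called lower, carries the ETS letters on the opposite strand.
Ndufs5: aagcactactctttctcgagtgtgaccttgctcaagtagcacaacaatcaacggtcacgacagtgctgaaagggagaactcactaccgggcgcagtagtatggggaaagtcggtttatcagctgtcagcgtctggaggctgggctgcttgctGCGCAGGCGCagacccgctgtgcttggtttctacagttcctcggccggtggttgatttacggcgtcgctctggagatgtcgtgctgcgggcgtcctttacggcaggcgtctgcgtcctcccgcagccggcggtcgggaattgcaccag
Uqcrc1: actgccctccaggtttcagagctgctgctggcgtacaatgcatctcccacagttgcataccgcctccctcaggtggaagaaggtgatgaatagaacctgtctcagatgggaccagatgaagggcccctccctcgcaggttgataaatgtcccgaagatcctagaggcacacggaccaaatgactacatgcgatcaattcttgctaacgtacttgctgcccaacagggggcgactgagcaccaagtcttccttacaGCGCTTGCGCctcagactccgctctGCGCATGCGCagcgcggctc
Ndufs7: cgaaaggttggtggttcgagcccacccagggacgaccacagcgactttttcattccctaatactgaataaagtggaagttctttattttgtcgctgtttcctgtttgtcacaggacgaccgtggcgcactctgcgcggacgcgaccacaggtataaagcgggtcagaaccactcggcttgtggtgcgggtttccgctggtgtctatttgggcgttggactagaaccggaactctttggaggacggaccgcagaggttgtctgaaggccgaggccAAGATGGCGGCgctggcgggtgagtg
Uqcrh: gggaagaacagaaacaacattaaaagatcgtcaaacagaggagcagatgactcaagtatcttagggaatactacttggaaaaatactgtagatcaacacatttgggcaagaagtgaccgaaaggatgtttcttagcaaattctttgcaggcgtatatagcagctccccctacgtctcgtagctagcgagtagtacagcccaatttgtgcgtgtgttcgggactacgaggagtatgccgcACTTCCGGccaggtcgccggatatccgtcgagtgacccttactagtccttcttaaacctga

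Complex I, the NADH dehydrogenase, had 38 tested members, of which 2 were called higher (Ndufs1 and Ndufb8) and 4 lower (Ndufs5, Ndufa6, Ndufs7 and Ndufb10), with a median log2 fold change of -0.12. Its nuclear core subunits include those that carry the flavin and the iron-sulphur clusters along which electrons run to ubiquinone, and 2 of them moved, in opposite directions. Ndufs1, the largest core subunit, had 71.6, 57.4, 54.0 and 69.1 FPKM in db/db replicates 1 to 4, against 45.2, 41.2, 34.5 and 47.4 FPKM in lean replicates 1 to 4. All 4 db/db samples were above all 4 lean samples. The means were 63.1 ± 8.63 FPKM in db/db and 42.1 ± 5.67 FPKM in lean liver (SD, n = 4 each), 1.498-fold higher in db/db. On the log2 scale the difference was 0.57 (SE 0.13, limma adjusted p = 0.00962). The table lists Ndufs1 (chromosome 1, minus strand, mm10) at a locus shared with Ino80d, so how reads of the pair were divided is uncertain.

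Ndufs7, the core subunit that holds the last iron-sulphur cluster before ubiquinone, had 57.6, 75.5, 66.9 and 63.0 FPKM in db/db samples, against 113, 82.1, 145 and 104 FPKM in lean samples. The groups did not overlap, and lean 3 was the highest. The log2 fold change was -0.72 (SE 0.16, limma adjusted p = 0.00806). Its locus on chromosome 10 is shared in the table with many neighbours, Atp5d and Polrmt among them. Of the other core subunits, Ndufv1, Ndufv2, Ndufs3 and Ndufs8 were not called, with adjusted p from 0.454 to 0.526 and overlapping groups. Ndufv1, which binds NADH and the flavin, averaged 95.7 ± 8.31 FPKM in db/db and 88.2 ± 9.34 FPKM in lean liver (SD, n = 4 each).

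The most negative log2 fold change of the members on the log2(FPKM + 1) scale was in an accessory subunit, while the scarce Cox7a1, described below with complex IV, was further apart as a ratio of mean FPKM (2.62-fold lower in db/db) and in voom. Ndufs5 (chr4:123712710-123718202, minus strand, mm10), a small subunit on the intermembrane side of complex I, had 63.2, 81.9, 81.1 and 86.9 FPKM in db/db samples, against 158, 163, 192 and 143 FPKM in lean samples. Each db/db sample was far below the lowest lean sample. Its mean was 78.3 ± 10.3 FPKM in db/db and 164 ± 20.6 FPKM in lean liver (SD, n = 4 each), 2.10-fold lower in db/db. The log2 fold change was -1.06 (SE 0.13, limma adjusted p = 0.000226).

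Ndufa6 (chr15:82350139-82354291, minus strand), which anchors an acyl carrier protein to the matrix arm, had 199, 263, 288 and 278 FPKM in db/db samples, against 451, 389, 362 and 368 FPKM in lean samples. The groups did not overlap, and the log2 fold change was -0.62 (SE 0.13, limma adjusted p = 0.00704). Ndufab1, the acyl carrier protein itself, was not called, at 175 ± 25.7 FPKM in db/db and 156 ± 7.34 FPKM in lean liver (adjusted p = 0.390). Ndufb10, an accessory subunit of the membrane arm, had 147, 186, 172 and 184 FPKM in db/db samples, against 235, 209, 273 and 208 FPKM in lean samples, with a log2 fold change of -0.42 (SE 0.12, limma adjusted p = 0.0282). This call was lost without db/db 1, db/db 3, lean 1 or lean 3 (adjusted p up to 0.0705) and after centring on transcript length (adjusted p = 0.0737).

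Ndufb8, another membrane arm subunit, went the other way. It had 200.6, 255, 265 and 295 FPKM in db/db samples, against 202, 171, 215 and 176 FPKM in lean samples, and only db/db 1 lay within the lean range. The log2 fold change was 0.40 (SE 0.13, limma adjusted p = 0.0481), and the call was kept on leaving out db/db 1 or lean 3 but lost without any other single library (adjusted p up to 0.127), with rescaling (adjusted p = 0.101) and in voom (adjusted p = 0.0774). Of the 31 complex I members outside the core, 27 were not called, with log2 fold changes from -0.36 (Ndufa1, adjusted p = 0.0722) to 0.31 (Ndufa10, adjusted p = 0.0599).

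**Figure D2:**
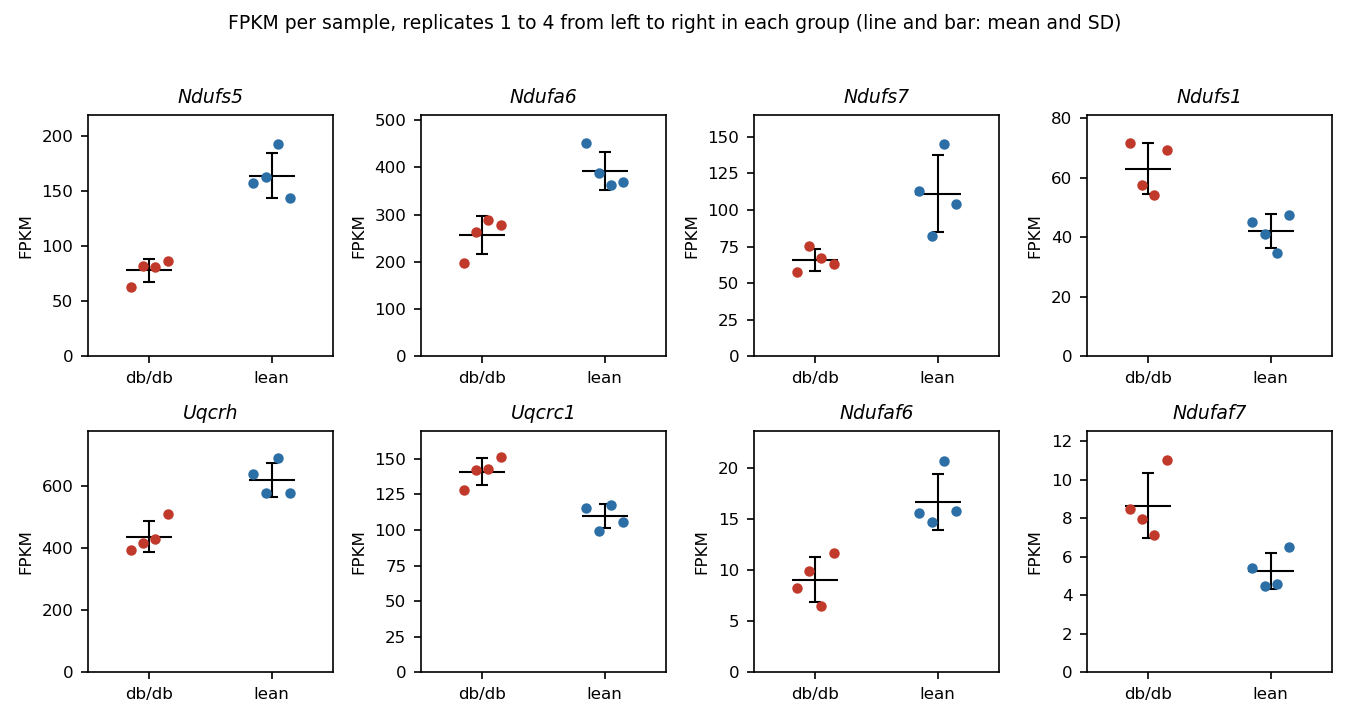
FPKM in each sample (points, replicates 1 to 4 from left to right; line and bar, mean and SD of 4) for 8 called genes, with db/db left of lean in each panel and a linear axis from 0. Ndufs5, Ndufa6, Ndufs7, Uqcrh and Ndufaf6 lie lower, and Ndufs1, Uqcrc1 and Ndufaf7 higher, in all 4 db/db samples than in any lean sample.

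The highest member of complex I by symbol was Ndufa4, with 951 ± 171 FPKM in db/db and 947 ± 80.7 FPKM in lean liver and 14.03% of the summed FPKM of the 38 genes. Its protein, named as a complex I subunit, was later assigned to complex IV. It was not called (log2 fold change -0.01, adjusted p = 0.972), and counting it with complex IV changed no count of called genes. Its paralog Ndufa4l2, known to be induced by hypoxia, was the lowest tested member, at 1.23 ± 0.230 FPKM in db/db and 1.30 ± 0.609 FPKM in lean liver (adjusted p = 0.960).

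The Ndufaf assembly factors, which act on complex I before it is complete, held 5 called genes of 7, 3 higher and 2 lower, beside 26.4% of all tested genes. Their levels were 4.38 to 31.0 FPKM on average over all samples, where the median over all 83 members was 195 FPKM. Ndufaf6, of a fold resembling squalene synthases, had 8.29, 9.92, 6.50 and 11.7 FPKM in db/db samples, against 15.6, 14.7, 20.8 and 15.8 FPKM in lean samples. All db/db values were below all lean values, 1.84-fold on average (log2 fold change -0.83, SE 0.17, limma adjusted p = 0.00538). Ndufaf4, which works in a pair with Ndufaf3, had 26.3, 22.6, 28.6 and 29.9 FPKM in db/db samples, against 35.6, 35.4, 36.9 and 32.4 FPKM in lean samples (log2 fold change -0.38, SE 0.11, limma adjusted p = 0.0266). Leaving out db/db 2, lean 1, lean 2 or lean 3 ended that call (adjusted p up to 0.0781). Ndufaf3 itself was not called, at 9.27 ± 0.481 FPKM in db/db and 8.54 ± 0.661 FPKM in lean liver (adjusted p = 0.475).

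In the other direction, Ndufaf7, an arginine methyltransferase, had 8.51, 7.98, 7.11 and 11.04 FPKM in db/db samples, against 5.44, 4.49, 4.60 and 6.51 FPKM in lean samples. Its groups did not overlap, and db/db 4 and lean 4 were the highest of their groups (log2 fold change 0.62, SE 0.15, limma adjusted p = 0.0131). Ndufaf5, which hydroxylates an arginine of Ndufs7, averaged 5.30 ± 0.663 FPKM in db/db and 3.46 ± 0.842 FPKM in lean liver (log2 fold change 0.51, adjusted p = 0.0300). Ndufaf1, part of the assembly complex of the proton-pumping membrane arm, averaged 33.4 ± 1.11 FPKM in db/db and 26.1 ± 2.84 FPKM in lean liver (log2 fold change 0.35, adjusted p = 0.0283). Neither was called by voom (adjusted p = 0.0695 for Ndufaf1 and 0.0817 for Ndufaf5). Of the single libraries, lean 1 alone could be left out with Ndufaf1 still called (adjusted p otherwise up to 0.0658), and Ndufaf5 was lost without db/db 2, db/db 4, lean 2 or lean 4 (adjusted p up to 0.0841). Ndufaf2, the most abundant of the 7, was not called (log2 fold change 0.15, adjusted p = 0.436).

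Complex III, which passes electrons from ubiquinol to cytochrome c, had 8 tested members, 1 called higher and 2 lower, with a median log2 fold change of 0.07. Uqcrh, the acidic hinge protein at the docking face for cytochrome c, had 395, 414, 429.8 and 508 FPKM in db/db samples, against 638, 576, 689 and 576 FPKM in lean samples. The groups did not overlap, with means of 437 ± 49.5 FPKM in db/db and 619.6 ± 54.6 FPKM in lean liver (SD, n = 4 each). The log2 fold change was -0.51 (SE 0.11, limma adjusted p = 0.00845). Its row shares a broad locus on chromosome 4 with 14 other genes, one of them the ATP synthase assembly factor Atpaf1.

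Uqcrc1, a core protein of the matrix side, had 128, 142, 143 and 151 FPKM in db/db samples, against 116, 99.6, 117 and 106 FPKM in lean samples. The difference was small but the groups stood apart, 1.29-fold higher in db/db (log2 fold change 0.36, SE 0.10, limma adjusted p = 0.0207). The call was lost without db/db 2, db/db 4, lean 2 or lean 4 (adjusted p up to 0.0593), with rescaling (adjusted p = 0.0537) and in voom (adjusted p = 0.0554). Its partner Uqcrc2 was not called on FPKM, at 230.0 ± 31.1 FPKM in db/db and 209 ± 17.2 FPKM in lean liver (adjusted p = 0.472), but was called higher by voom (log2 fold change 0.39, adjusted p = 0.0221).

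Uqcrq, a small subunit and the most abundant member of complex III, had 463, 699.9, 799 and 747 FPKM in db/db samples, against 995, 863, 1229 and 858 FPKM in lean samples. The groups did not overlap, with db/db 1 the lowest and lean 3 the highest of all samples (log2 fold change -0.56, SE 0.18, limma adjusted p = 0.0474). The call held in 8 of 21 alternatives, and db/db 3 was the single library that could be left out without losing it (adjusted p otherwise up to 0.118). Uqcrfs1, the Rieske iron-sulphur protein, was not called, at 162 ± 13.2 FPKM in db/db and 145 ± 9.50 FPKM in lean liver (adjusted p = 0.270).

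Complex IV, cytochrome c oxidase, had 1 called gene among 12 tested members, Cox7a1, with a median log2 fold change of -0.18 and 11 of 12 members below 0. Cox7a1 is the heart and muscle isoform and was scarce in liver, with 0.960, 2.51, 2.81 and 1.86 FPKM in db/db samples, against 5.03, 5.39, 8.26 and 2.67 FPKM in lean samples. The groups overlapped, since lean 4 was below db/db 3. The log2 fold change was -1.03 (SE 0.28, limma adjusted p = 0.0207) from 4 to 29 estimated fragments per sample, and the call was lost without lean 2 or lean 3 (adjusted p up to 0.0527). Of the skeletal muscle and brown fat markers, Ckm, Acta1, Myh4 and Ucp1 averaged under 0.5 FPKM. Cidea, also a lipid droplet gene of fatty liver, was higher, at 4.85 ± 3.02 FPKM in db/db and 0.0303 ± 0.0606 FPKM in lean liver (limma adjusted p = 0.000404). It passed the filter through the db/db samples alone, so this p-value is not independent of that choice. The summed level of these 5 markers was 2.24 to 8.28 FPKM in db/db samples and 0 to 0.217 FPKM in lean samples. In db/db samples nearly all of it was Cidea, so the sum gives no level of muscle or brown fat.

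The liver isoform Cox7a2 was present at 208 ± 17.7 FPKM in db/db and 239 ± 17.7 FPKM in lean liver and was not called (adjusted p = 0.174). Cox7a2l, which helps to join complexes III and IV into supercomplexes, was not called either (93.0 ± 5.86 FPKM in db/db, 106 ± 19.1 FPKM in lean; adjusted p = 0.399). The other isoform pairs followed the same order in both groups, with the widely expressed form high and the tissue-restricted form near the floor of the table. Cox4i1, the regulatory subunit that binds ATP, averaged 519 ± 68.3 FPKM in db/db and 618 ± 80.2 FPKM in lean liver (adjusted p = 0.189). Its counterpart Cox4i2, known from lung and hypoxia, averaged 0.178 FPKM in db/db and 0.0506 FPKM in lean liver. Cox6a1 averaged 484 ± 58.1 FPKM in db/db and 583 ± 62.1 FPKM in lean liver (adjusted p = 0.135). Its heart isoform Cox6a2 reached at most 0.340 FPKM in db/db and 0.131 FPKM in lean samples.

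Cox6b1, the most abundant member of complex IV with 17.4% of its summed FPKM, averaged 774 ± 85.3 FPKM in db/db and 860.2 ± 96.8 FPKM in lean liver (adjusted p = 0.399). Its testis form Cox6b2 lay just outside the filter, at up to 0.297 FPKM in db/db and up to 2.12 FPKM in lean samples. Cox8a averaged 369 ± 52.3 FPKM in db/db and 389 ± 41.7 FPKM in lean liver (adjusted p = 0.672). The muscle isoform Cox8b was listed above 0 in 1 db/db sample, at 0.567 FPKM, and Cox7b2 and Cox8c were listed at 0 in all 8 samples. Cox5a, which was not called on FPKM (log2 fold change -0.20, adjusted p = 0.121), had groups that did not overlap and was called lower by voom (log2 fold change -0.28, adjusted p = 0.0366).

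Complex V had 18 tested members by symbol, 1 called higher and 1 lower, with a median log2 fold change of -0.17. Atp5a1, the alpha subunit of the catalytic head, had 489.5, 424, 414 and 519 FPKM in db/db samples, against 365, 357, 378 and 374 FPKM in lean samples. The groups did not overlap, and the db/db samples spread more widely (462 ± 51.0 FPKM in db/db, 368.5 ± 9.42 FPKM in lean). The log2 fold change was 0.32 (SE 0.10, limma adjusted p = 0.0455). The call survived the removal of db/db 3 and of no other single library (adjusted p up to 0.121), and was lost with rescaling (adjusted p = 0.0931), while voom called it (adjusted p = 0.0222). Atp5b, the catalytic beta subunit and the most abundant member of all, averaged 1119 ± 147 FPKM in db/db and 1256 ± 129.7 FPKM in lean liver (SD, n = 4 each) and was not called (adjusted p = 0.371). Atp5c1, the gamma subunit of the central stalk, had groups that stood apart, at 318 ± 18.9 FPKM in db/db and 270.0 ± 26.7 FPKM in lean liver, without being called (adjusted p = 0.115).

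Atp5g1, Atp5g2 and Atp5g3 encode the same mature ring subunit with different targeting sequences. Atp5g3 was the most abundant, at 399 ± 31.1 FPKM in db/db and 429 ± 22.2 FPKM in lean liver (adjusted p = 0.460). Atp5g1 averaged 168 ± 29.1 FPKM in db/db and 192 ± 22.1 FPKM in lean liver (adjusted p = 0.345), and Atp5g2 104 ± 17.0 FPKM in db/db and 114 ± 8.74 FPKM in lean liver (adjusted p = 0.450). None of the 3 was called. Atp5k, a small membrane subunit, did not overlap between groups, at 263 to 313 FPKM in db/db and 332 to 391 FPKM in lean samples. It missed the threshold on FPKM (log2 fold change -0.28, adjusted p = 0.0664) but passed it in voom (adjusted p = 0.0218).

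The lower call under the Atp5 symbols was not a subunit of the synthase. Atp5sl, now named Dmac2, is an assembly factor of the distal membrane arm of complex I. It had 21.4, 19.2, 17.8 and 27.0 FPKM in db/db samples, against 30.0, 29.8, 29.0 and 25.8 FPKM in lean samples, and db/db 4 lay within the lean range (log2 fold change -0.42, SE 0.13, limma adjusted p = 0.0376). Without db/db 4 or lean 4 it was still called, and without any other single library it was not (adjusted p up to 0.0983). Atp5s, a related protein outside the synthase core, and Atp5l-ps1, a pseudogene-type copy of Atp5l, were low and not called. Without these 3, the 15 remaining members held 1 called gene, Atp5a1.

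Summed over the tested genes, the FPKM of complex I was 5329, 6476, 6989 and 7100.4 in db/db samples, against 7517, 6468, 7837 and 6427 in lean samples, a ratio of means of 0.917. For complex III the ratio was 0.868, for complex IV 0.901 and for complex V 0.928, while for the assembly factors it was 1.01. For complex V the ratio turned to 1.07 on the second measure of the table, which is proportional to estimated fragments, and to 1.01 with quantile normalization. In each of the 4 complexes db/db 1 had the lowest sum of all 8 samples, and in complexes III and IV db/db 2 also fell below the lowest lean sample. Without db/db 1 the ratios were 0.971 for complex I, 0.928 for III, 0.956 for IV and 0.972 for V. No test was made on these sums.

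**Figure D3:**
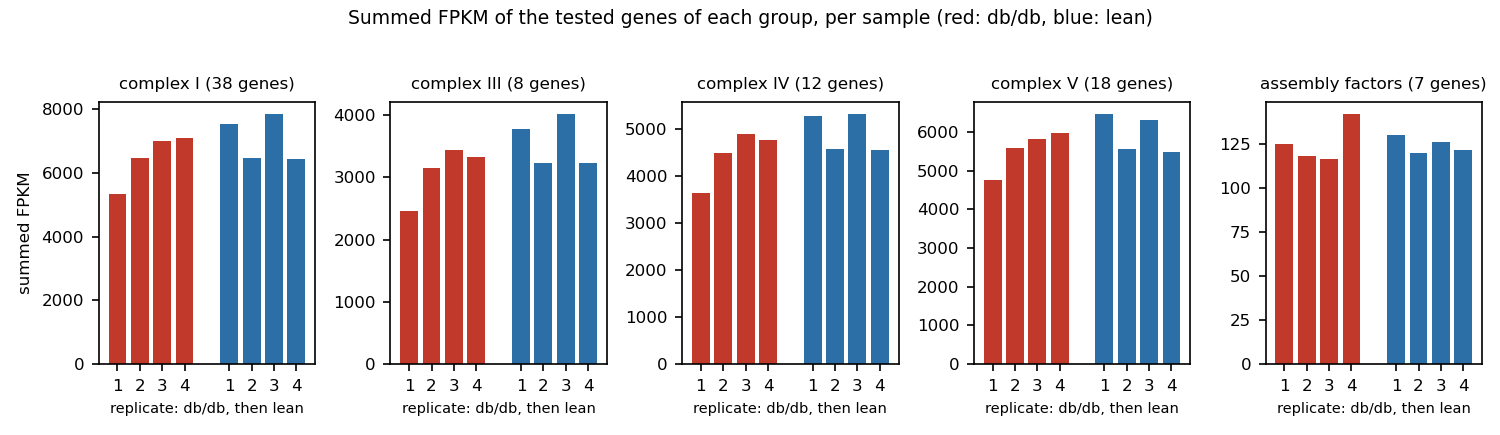
Summed FPKM of the tested genes of complexes I, III, IV, V and of the Ndufaf assembly factors (vertical axes, from 0) in each sample, with db/db replicates 1 to 4 left of lean replicates 1 to 4. The db/db 1 bar is the lowest of each complex, at 5329 for complex I, and the assembly factors have similar sums in both groups, with 125 ± 11.5 in db/db and 124 ± 4.63 in lean liver.

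In these genes the same single libraries often held the extreme value. The sample db/db 1 was the lowest db/db sample in 65 of the 83 members (78.3%) and in 29.9% of all tested genes, and lean 3 was the highest lean sample in 45 members (54.2%) and in 29.7% of all tested genes. The median deviation of the members from their gene means was -0.28, -0.04, 0.06 and 0.07 (log2) in db/db 1, 2, 3 and 4, against 0.17, -0.07, 0.17 and -0.06 in lean 1, 2, 3 and 4. When both db/db 1 and lean 3 were left out, an alternative added after seeing the data, 4 members were called higher and 5 lower, and 8 of the 17 calls were kept.

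The differences also varied with coding length, which is short in many respiratory chain genes. Coding lengths were taken from the GENCODE annotation for 82 of the members and 98.2% of all tested genes. The 27 shortest members, of 156 to 336 bases, had a median log2 fold change of -0.20, the 27 in the middle, of 339 to 528 bases, -0.17, and the 28 longest, of 537 to 2181 bases, 0.12. Other tested genes cut at the same lengths had medians of -0.08, -0.07 and 0.06. All 7 members called higher were among the longest, where 3 were called lower. Among the short members 4, and among the middle ones 3, were called, all of them lower.

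Among other genes, 41 of 300 short ones were called higher and 66 lower, 80 of 769 middle ones higher and 144 lower, and 1543 of 9600 long ones higher and 943 lower. Over genes, Spearman's rho of coding length with the log2 fold change was 0.372 in 82 members and 0.0759 in 10751 tested genes, as a description of genes measured in the same 8 libraries. In db/db 1, other genes of short coding length stood at a median of -0.20 and those of long coding length at 0.06. Of 1069 other genes of short or middle coding length, 55.9% had their lowest db/db value in db/db 1, and 38.7% had their highest lean value in lean 3. The part of fragment or transcript length in the results was not tested beyond a centring on transcript length in each sample, also added after seeing the data, which kept 16 of the 17 calls, with 7 higher and 9 lower, beside 26.5% of all genes, 13.5% higher and 13% lower. The median of the members was then -0.06.

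**Figure D4:**
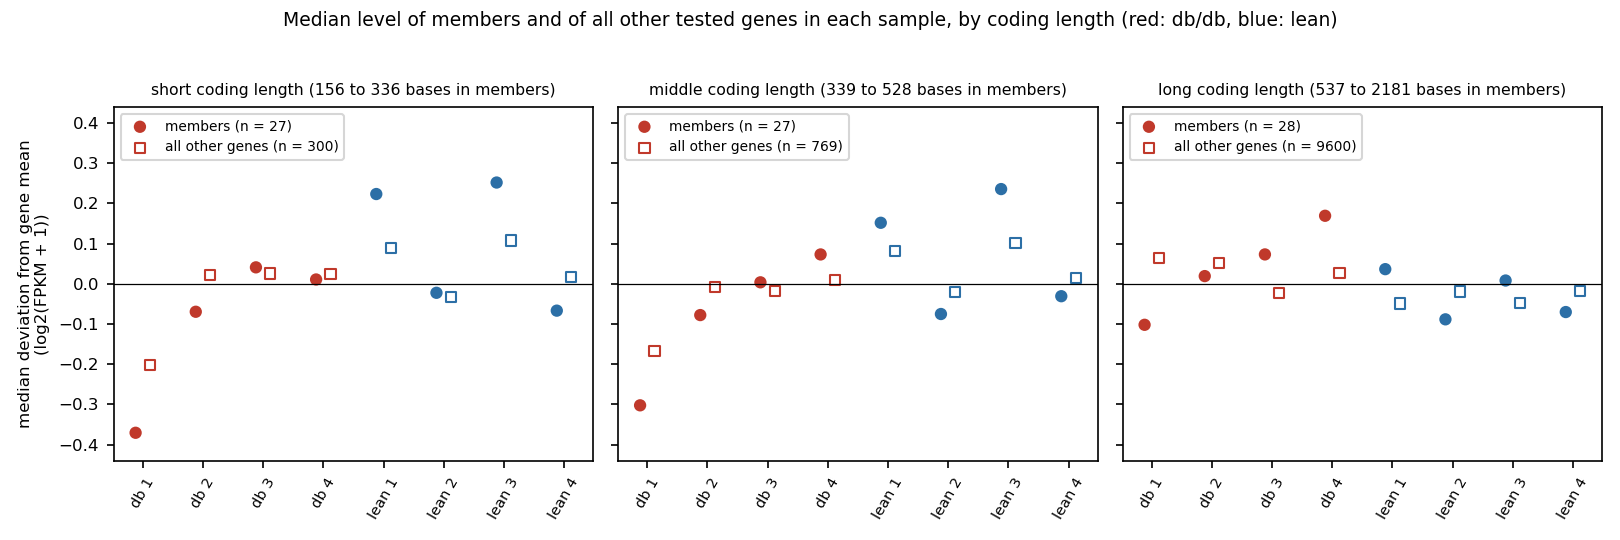
Median deviation from the gene mean (log2(FPKM + 1)) of members (filled circles) and of all other tested genes (open squares) in each sample, db/db (red) left of lean (blue), for short, middle and long coding lengths. In the short class db/db 1 lies at -0.37 for members and -0.20 for other genes, and lean 3 at 0.25 and 0.11, while the long class stays within 0.17 of 0.

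For most members the deposited FPKM and the estimated fragments gave close differences, with exceptions among abundant genes. Atp5b had a log2 fold change of -0.17 on FPKM and 0.13 in voom (adjusted p = 0.3999). Uqcrc2 had 0.13 on FPKM and 0.39 in voom. FPKM depends on the transcript length used for each sample, which no source used here gives, so isoform assignment and expression cannot be told apart for this pair of genes. For Ndufs5 the voom value was -1.15, for Ndufs1 0.52 and for Cox7a1 -1.48.

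**Figure D5:**
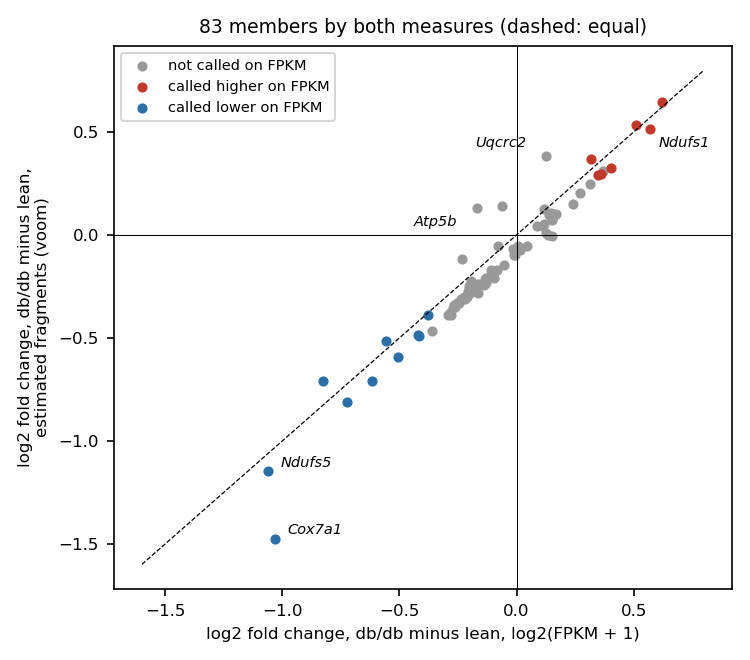
Log2 fold change (db/db minus lean) of the 83 tested members from FPKM (horizontal axis) and from estimated fragments by voom (vertical axis); the dashed line marks equal values and colours give the call on FPKM. Most points lie slightly below the line, and Uqcrc2 and Atp5b lie above it, at 0.39 and 0.13 by voom.

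The rest of the pathway was read from lists of genes beyond the symbols above. Complex II, succinate dehydrogenase, which feeds electrons to ubiquinone beside complex I, had 3 of its 4 genes called higher, beside 15.5% of all tested genes. Sdhb, its iron-sulphur subunit, had 334, 359, 388 and 422 FPKM in db/db samples, against 266, 211, 208 and 212 FPKM in lean samples. The groups stood well apart, 1.68-fold higher in db/db (log2 fold change 0.74, SE 0.12, limma adjusted p = 0.00117). Sdha, the flavoprotein, averaged 209 ± 27.1 FPKM in db/db and 141 ± 10.2 FPKM in lean liver (log2 fold change 0.56, adjusted p = 0.00519).

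The membrane anchor Sdhc averaged 132 ± 11.3 FPKM in db/db and 106 ± 1.03 FPKM in lean liver (adjusted p = 0.0283). That call was lost in voom (adjusted p = 0.403), with rescaling (adjusted p = 0.0756) and with length centring (adjusted p = 0.0576). It was also lost without db/db 3, db/db 4, lean 1, lean 2 or lean 4 (adjusted p up to 0.0809). The other anchor, Sdhd, averaged 159 ± 15.8 FPKM in db/db and 155 ± 10.2 FPKM in lean liver and was not called (adjusted p = 0.863). Cyc1, the cytochrome c1 of complex III, and Cycs, cytochrome c, were not called (adjusted p = 0.0524 for Cyc1 and 0.990 for Cycs).

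Among 35 tested assembly factors of the other list, 8 were called higher and 1 lower, beside 15.5% and 10.9% of all tested genes. The share of all tested genes called in either direction was 26.4%. Acad9 and Ecsit, which act together with Ndufaf1 on the membrane arm of complex I, went in opposite directions. Acad9 averaged 29.7 ± 2.50 FPKM in db/db and 14.0 ± 3.39 FPKM in lean liver (log2 fold change 1.06, adjusted p = 0.000999), and Ecsit 23.6 ± 3.02 FPKM in db/db and 30.2 ± 2.43 FPKM in lean liver (log2 fold change -0.35, adjusted p = 0.0469). Ecsit was still called without db/db 4 and lost without any other single library (adjusted p up to 0.104). Nubpl, which delivers iron-sulphur clusters to complex I, averaged 4.95 ± 1.22 FPKM in db/db and 1.72 ± 0.463 FPKM in lean liver (log2 fold change 1.12, adjusted p = 0.00104).

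Sco2, which brings copper to complex IV, had 54.9, 64.9, 82.7 and 66.5 FPKM in db/db samples, against 33.0, 27.0, 25.8 and 26.3 FPKM in lean samples, 2.40-fold higher in db/db (log2 fold change 1.22, SE 0.14, limma adjusted p = 0.000123). Coa6, of the same copper pathway, rose with a log2 fold change of 0.46 (adjusted p = 0.0248), and the complex IV factors Cox16 and Taco1 by 0.33 and 0.85 (adjusted p = 0.0354 and 0.0249). For complex III, Uqcc1 rose by 0.65 (adjusted p = 0.0259) and Lyrm7, which guards the Rieske protein before its insertion, by 1.398 (adjusted p = 0.0162). The groups overlapped in Coa6, Taco1, Uqcc1 and Lyrm7. For Lyrm7, lean 2 was at 6.04 FPKM, above db/db 1 at 5.21 FPKM, and db/db 4 was the highest at 12.7 FPKM. Voom did not call Coa6, Cox16 or Uqcc1 (adjusted p = 0.0733, 0.118 and 0.0693). Coa6 and Cox16 were also lost with rescaling (adjusted p = 0.0524 and 0.0756), and Cox16 with length centring (adjusted p = 0.229). With 1 library left out, Coa6 was lost in 5 of 8 cases (all but db/db 1, lean 1 and lean 4), Cox16 in 6 (all but db/db 1 and lean 1), Taco1 in 6 (all but db/db 3 and lean 4) and Uqcc1 in 5 (all but db/db 2, db/db 3 and lean 4), with adjusted p up to 0.104.

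Of 8 tested genes of the list of ATP synthase inhibitor and carriers, limma and voom called 0, with 0 at an unadjusted p under 0.05. Of 14 tested regulators, 1 was called in each direction. Ppargc1a, the coactivator of mitochondrial biogenesis, averaged 1.99 ± 0.486 FPKM in db/db and 0.458 ± 0.312 FPKM in lean liver (log2 fold change 1.05, adjusted p = 0.00232). Its lean values were near the floor, from 0.000294 FPKM in lean 3 to 0.677 FPKM in lean 1. The size of the difference therefore varied with the measure, at 4.34-fold by mean FPKM and a log2 fold change of 3.32 in voom (adjusted p = 0.0289). Polrmt, the mitochondrial RNA polymerase, averaged 10.9 ± 1.08 FPKM in db/db and 17.6 ± 6.01 FPKM in lean liver (log2 fold change -0.60, adjusted p = 0.0395) and was not called by voom (adjusted p = 0.439) or, on FPKM, without any single library other than lean 1 and lean 4 (adjusted p up to 0.0899). Nrf1, whose motif is counted above, was not called on FPKM, at 2.69 ± 0.766 FPKM in db/db and 3.71 ± 0.571 FPKM in lean liver (adjusted p = 0.117), but was lower in voom (log2 fold change -0.74, adjusted p = 0.00855).

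The 13 mitochondrially encoded subunits are given as listed values with no fold change, because several were listed at exactly 0 in db/db samples. The table listed mt-Co1 at 0 in all 4 db/db samples, against 10029 to 12810 FPKM in lean samples. It listed mt-Nd3, mt-Nd4, mt-Nd4l, mt-Co3 and mt-Atp6 at 0 in db/db 1, 2 and 3, while db/db 4 had 169, 4493, 163, 749.8 and 63.1 FPKM for these genes. In lean samples these 5 ranged over 107 to 367 FPKM for mt-Nd3, 4815 to 6929 FPKM for mt-Nd4, 81.4 to 183 FPKM for mt-Nd4l, 375 to 1031 FPKM for mt-Co3 and 42.5 to 284 FPKM for mt-Atp6. Such zeros stood beside high values of neighbouring mitochondrial genes in the same libraries: mt-Nd1 was at 10791 to 15387 FPKM in db/db and 9443 to 10590.0 FPKM in lean samples, and mt-Nd2 at 10395 to 14414 FPKM in db/db and 10055 to 13791 FPKM in lean samples. For mt-Cytb the listed values were 8567 to 10918 FPKM in db/db and 12169 to 15168 FPKM in lean samples, and for mt-Nd5 1366 to 2427 FPKM in db/db and 508 to 724 FPKM in lean samples. The range of mt-Nd6 was 112 to 226 FPKM in db/db and 98.9 to 129 FPKM in lean samples, that of mt-Co2 466 to 1363 FPKM in db/db and 488 to 1300.2 FPKM in lean samples, and mt-Atp8 was listed at or near 0 throughout. A failed estimate and an absent transcript cannot be told apart for the genes at 0.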

How the data were processed

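RNA of 4 db/db and 4 lean liver samples was sequenced, and the groups and numbers come from the sample titles. No label says how many animals gave the samples of a group, so the spread behind each p-value is that of these samples alone and may be technical. Per the labels' protocols, total RNA was depleted of ribosomal RNA and made into stranded libraries. The submitters' processing notes name the build mm10 and the tools HISAT2 2.0.4, cutadapt 1.9.3, Cuffdiff and Cufflinks, without their roles. The deposited table holds FPKM, computed by the authors, per the file headers. Its second measure is headed counts, but the deposited values are a signal: estimated fragments divided by a factor for each library. Of its values below 2000 steps, 91.3 to 92.0% were whole within 0.05 of a step, and dividing by the step gave the fragments used for depth and voom.

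Of 22564 rows with values, 1 further row being empty, 162 rows of 79 symbols were summed. Because 5877 rows, 22 of the tested members among them, share a locus with another row, overlapping genes are uncertain. Locus starts in the table count from 0 and are given here from 1. Genes with FPKM of 0.5 or more in 4 samples were tested as log2(FPKM + 1), pseudocount 1, with limma 3.58.1 in R 4.3.3 (lmFit, eBayes with trend), 2-sided, with Benjamini-Hochberg adjustment over all 10943 genes and a threshold of 0.05. Every adjusted p is from limma, and those said to be from voom are from limma's voom on fragments. Every log2 fold change is db/db minus lean, on the log2(FPKM + 1) scale unless voom or another alternative is named with it. That scale understates changes of low genes, and folds are ratios of mean FPKM. The fit was tested on simulated data.

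Named were, in each complex and direction, up to 4 called members taken in order of adjusted p, the most abundant member, the isoform pairs, the complex I core and, with their values, called genes of the wider lists; Ndufab1, Ndufa1, Ndufa10, Ndufaf3, Uqcrc2, Uqcrfs1, Cox5a, Atp5c1, Atp5k, Nrf1 and genes near the threshold were added after their values were seen. A result on 1 gene that this rule names is not reported here. The members and lists were chosen with earlier results of these data known. Alternatives were other pseudocounts (0.1 and 0.5), filters, scalings and measures, library weights, robust eBayes, a replicate block and leaving out libraries.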

Additional observations from a re-analysis of the deposited data

Results flagged for a closer look

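Of 176 groups of 4 values (each tested member in each group, and the summed levels), 7 held 1 sample far from the other 3, where chance gives about 1 in 20. In db/db 1, Atp5j stood at 374 FPKM while its group otherwise spanned 506 to 517 FPKM, Cox7b at 331, against 473 to 493, and Ndufb5 at 169, against 199 to 202. In db/db 2, Ndufaf1 was at 31.7, against 33.8 to 34.2. In lean 1, Ndufb6 was at 108, against 88.3 to 91.2, and Ndufc2 at 141, against 118 to 122. In lean 3, Ndufs6 was at 272, against 186 to 196. Of these, only Ndufaf1 was called between the groups.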

How the results depend on the processing

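All 10943-gene calls stayed within 1.5 times of 2892 under each alternative (2271 to 2650 when 1 library was left out). Members called higher numbered 3 after median-ratio rescaling, 4 in voom and 4 without db/db 1 and lean 3, and those called lower 5 without both libraries. With 1 library left out, 2 to 7 were called higher and 5 to 9 lower, and complex I held 4 to 7 calls, complex III 1 to 3, complexes IV and V 0 to 1, the assembly factors 2 to 4 and the wider lists 8 to 13, against 14. Complex IV held 0 calls with no filter, with the second measure and without both libraries, and 2 in voom. Complex V held 1 with no filter and 0 without both libraries. The assembly factors held 3 with quantile normalization and in voom, and 1 without both. The ratio of sums for complex V was 1.07 on the second measure. With 1 library left out, the ratios ranged over 0.887 to 0.971 for complex I, 0.836 to 0.928 for III, 0.871 to 0.956 for IV and 0.904 to 0.972 for V.

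Among the genes reported by the naming rule, those that turned to a positive log2 fold change were all uncalled (members outside that rule are not listed): Atp5b (0.20 on the second measure, 0.13 in voom), Ndufs8 (0.020 without both libraries), Atp5g3 (0.027 with quantile normalization, 0.017 with length centring), Cox8a (0.074, 0.042, and 0.026 without both), Ndufa4 (0.033 with library weights, 0.00081 with quantile normalization, 0.12 with length centring and 0.12 without both) and Ndufa4l2 (0.083 with library weights, 0.0055 with pseudocount 0.1, 0.19 without both). With 1 library left out, Ndufa4 ranged from -0.082 to 0.11 and Ndufa4l2 from -0.12 to 0.14. The cause was not tested.

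The values gave no sign that the replicate numbers of the titles pair the samples. Deviations of same-numbered samples correlated at -0.221, 0.0293, 0.110 and -0.00925. No db/db sample correlated best with the lean sample of its own number, and the lean samples were not checked in the same way. With the replicate number as a block, 2 members were called higher and 6 lower, all among the 17, with 1 call in complex III, 0 in complex V and 2 among the assembly factors. Low fragment numbers limit Cox7a1 (4 to 29 fragments), Ndufaf5 (43 to 110) and Ndufaf6 (94 to 221).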
